A study of Mus musculus with 6 samples.

Results

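The genes described are 10 mouse genes for proteins that hepatocytes secrete into plasma: Afp, Alb, Apoa1, Apoa2, Ttr, Ahsg, Fga, Fgb, Fgg and Trf. They were found as array probes whose RefSeq accession maps to these symbols, with the brightest probe standing for each gene, and all 10 were among the 20283 genes read. They serve as a check of liver RNA in sorted blood cells. The 6 arrays measured KSL cells, which are c-Kit+ Sca1+ Lineage- cells, the sorted fraction that holds the blood stem cells. Trim28 encodes TIF1b, a corepressor of chromatin, and was the deleted gene. The fetal liver KO array held cells of Tie2-Cre, Tif1b f/f genotype and the fetal liver WT array cells of Tie2-Cre, Tif1b w/w genotype, 1 array each. The 2 bone marrow KO arrays held adult cells labelled CreERT, Tif1b f/f and the 2 bone marrow WT arrays adult cells labelled CreERT, Tif1b w/w. The labels of replicate 2 read Tif2b in place of Tif1b. All were on a C57BL6 background (written C57/BL6 for replicate 2), and both genotypes of a tissue carry the same Cre. Tie2 drives Cre in endothelial and blood-forming cells and not in hepatocytes, and CreERT acts after tamoxifen, which the labels do not mention. Embryonic day and adult age are not given in the sources used here, nor is it said whether cells were pooled over animals. No label states that the arrays of a group come from different animals, and the p-values may then measure only technical spread. For each array, 10 ng of total RNA was amplified and labelled with Cy3.

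Plasma proteins are made in bulk by hepatocytes under liver transcription factors such as HNF4 and C/EBP. Fetal liver is the main blood-forming organ before birth, so its stem cells lie among hepatoblasts, whereas adult marrow has no hepatocytes. Afp is the albumin-like carrier of fetal plasma and a classic product of hepatoblasts. Its gene lies next to Alb on chromosome 5, and the fibrinogen chain genes Fgg, Fga and Fgb lie side by side on chromosome 3. Apoa1 and Trf are both on chromosome 9, Apoa2 is on chromosome 1 and Ahsg on chromosome 16.

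Sequences upstream of 5 of the genes are shown because a C/EBP-type motif was found in them, and they do not stand for all 10 genes. Afp, Alb, Ahsg and Fgb were lower in fetal liver KO cells than in WT cells, and Fga was higher. Each sequence is the 250 bases before the RefSeq start on GRCm38.p6, at chr5:90490464-90490713 for Afp, chr5:90460620-90460869 for Alb, chr16:22891765-22892014 for Ahsg and chr3:83025903-83026152 for Fga, all on the plus strand, and at chr3:83049864-83050113 on the minus strand for Fgb. Capitals mark matches on either strand to TTGCNNAA, a form of the C/EBP site.
Afp: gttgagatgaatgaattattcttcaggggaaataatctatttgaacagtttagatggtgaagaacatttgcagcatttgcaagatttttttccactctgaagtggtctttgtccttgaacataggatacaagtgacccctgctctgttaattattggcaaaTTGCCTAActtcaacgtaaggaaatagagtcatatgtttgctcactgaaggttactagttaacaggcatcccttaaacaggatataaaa
Alb: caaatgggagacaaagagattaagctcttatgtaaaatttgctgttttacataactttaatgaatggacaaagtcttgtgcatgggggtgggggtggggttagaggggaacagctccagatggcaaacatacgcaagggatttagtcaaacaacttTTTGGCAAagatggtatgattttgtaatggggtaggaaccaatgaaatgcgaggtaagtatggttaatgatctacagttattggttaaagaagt
Ahsg: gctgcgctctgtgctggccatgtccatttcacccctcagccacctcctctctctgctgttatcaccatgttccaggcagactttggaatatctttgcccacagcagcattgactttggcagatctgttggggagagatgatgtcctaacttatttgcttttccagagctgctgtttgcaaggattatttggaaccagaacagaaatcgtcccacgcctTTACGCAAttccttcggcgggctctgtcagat
Fgb: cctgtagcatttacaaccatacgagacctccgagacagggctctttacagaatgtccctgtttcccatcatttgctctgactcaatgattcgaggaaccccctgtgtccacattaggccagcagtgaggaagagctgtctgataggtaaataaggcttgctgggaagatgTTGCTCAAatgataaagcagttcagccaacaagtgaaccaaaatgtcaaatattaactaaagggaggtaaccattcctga
Fga: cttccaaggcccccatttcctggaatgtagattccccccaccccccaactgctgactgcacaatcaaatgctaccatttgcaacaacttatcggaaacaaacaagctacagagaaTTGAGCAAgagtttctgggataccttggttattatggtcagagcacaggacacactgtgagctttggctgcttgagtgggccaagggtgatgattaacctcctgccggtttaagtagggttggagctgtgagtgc

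TTGCNNAA was found in 6 of the 9 windows searched for 8 of the genes, those of Afp, Alb, Ahsg, Fga and Fgb and 1 of those of Apoa2, against 9.56% of all 32851 windows of this length. It was not found in the windows of Fgg and Apoa1 or in the other Apoa2 window. Its first base in the printed strand lay 89 bases before the start in Afp, 94 in Alb, 32 in Ahsg, 80 in Fgb and 135 in Fga. TATAAA, the TATA box, is in the windows of Afp and Apoa2 and in 12.4% of all windows. The motifs were searched on both strands, their matches do not overlap each other, and they were chosen after the sequences were seen. Fga shares the marked motif with Fgb and Alb, although its difference in fetal liver had the other sign.

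Values are log2 signals relative to the 75th percentile of the array, so 0 is a bright probe and the dimmest detected probes lie between -4.98 and -3.23. That percentile was a signal of 211 for fetal liver KO, 219 for fetal liver WT, 325 and 743 for bone marrow KO and 281 and 737 for bone marrow WT, so replicate 2 of the bone marrow was the brightest. The scanner flags a probe as well above background, and a probe without the flag is said here to be not above background. The array labelled bone marrow WT replicate 1 stands apart. Its scanner file holds other values than its column in the value table that the authors also deposited, with 1.40% of 24572 probes within 1% of each other, against 100% on the other 5 arrays. In the scanner file the stem cell receptor gene Kit was at 1.30, against 4.16 in the table and 4.17 to 4.50 on the other arrays. Of 11 KSL marker genes, 8 were above background in that file, against 11 in the table. The description lines of bone marrow WT and KO replicate 1 name knockdowns of Hp1a and Hp1g in c-Kit+ Lineage- cells, unlike their other labels. Most results that use the WT array are therefore given from the scanner file and from the table, and some from 1 of them only. Ly6a, the gene for Sca-1, was at 0.77 on the fetal liver KO array and 0.31 on the WT array, against 3.36 to 6.04 in bone marrow, and Cd34 was at 6.23 or more on every array.

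More of the 10 genes were detected in the cells sorted from fetal liver than in those from marrow, mainly on the fetal liver WT array. On the fetal liver KO array 5 of the 10 genes were above background, and on the fetal liver WT array 8. Of all 20283 genes, 12256 were above background on the KO array and 12153 on the WT array. In bone marrow the count was 3 and 4 on the KO arrays, and 3 (scanner file and table alike) and 4 on the WT arrays. Of all probes, 46.4% and 56.2% were above background on the marrow KO arrays and 49.5% and 56.4% on the WT arrays (scanner files). The fetal liver KO and WT arrays had 44.1% and 43.8%. The marrow signal came from Afp, Apoa2 and Trf on every array, and from Fga on both arrays of replicate 2. Of the 5 genes detected on the fetal liver KO array, Alb alone was detected on no marrow array. Alb was above background on both fetal liver arrays and on no marrow array, which was true of 0.427% of the 11710 genes detected on both fetal liver arrays. Ttr, Ahsg, Fgb and Fgg were above background on the fetal liver WT array alone, and 3.65% of the genes detected on that array were not detected on the KO array. Fga was detected on the KO and not on the WT array of fetal liver, as were 4.45% of the genes detected on the KO array.

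**Figure D1:**
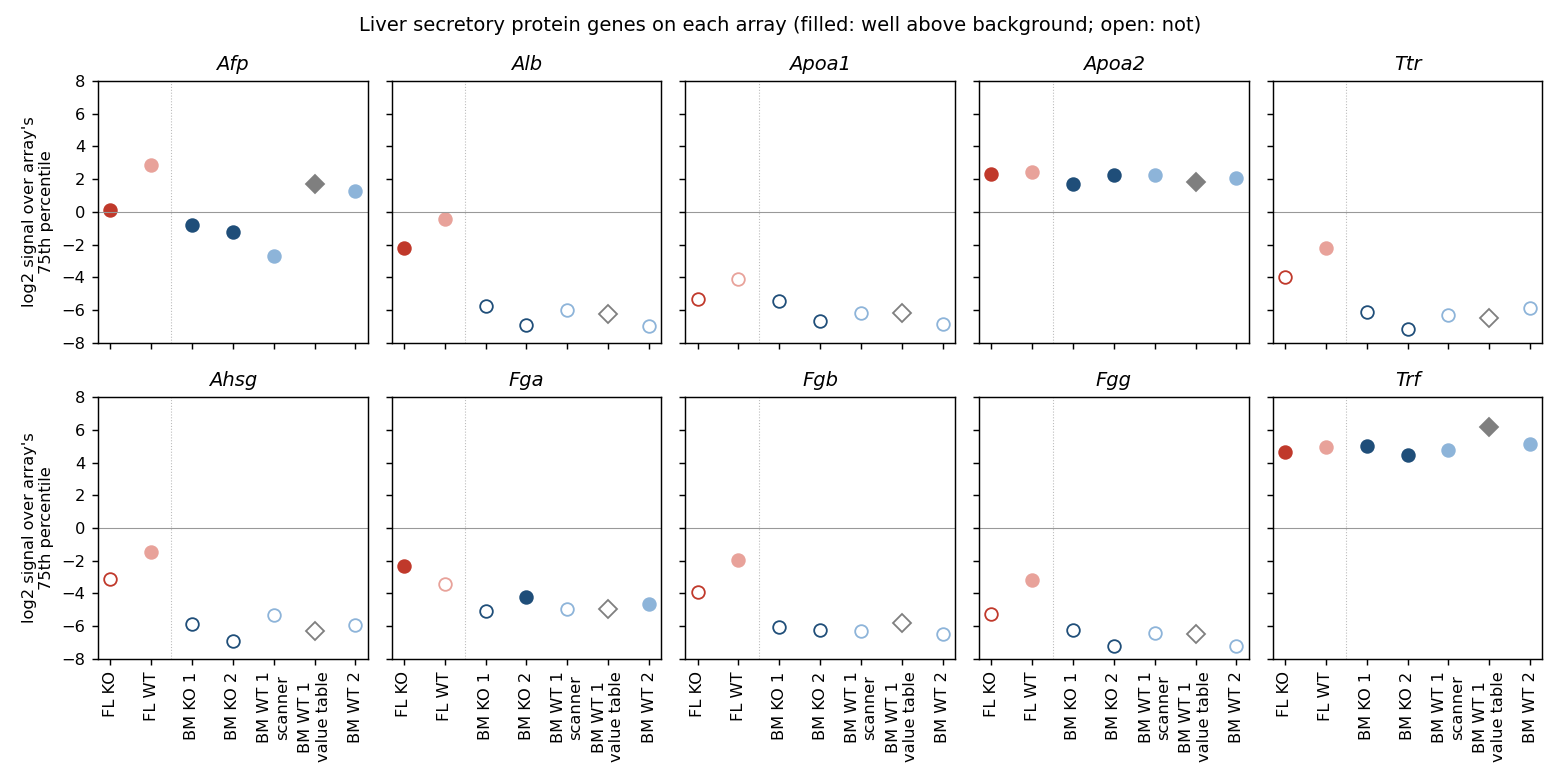
Level of each gene on each array, as log2 signal over the array's 75th percentile (vertical axis), with fetal liver (FL) KO and WT to the left and bone marrow (BM) KO and WT to the right; filled points are well above background and diamonds are the value table's numbers for BM WT replicate 1. Afp, Apoa2 and Trf are filled throughout, and Alb is filled on both FL arrays only.

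Alb, which encodes the most abundant protein of plasma, was at -2.19 on the fetal liver KO array and -0.42 on the fetal liver WT array. In bone marrow it was at -5.78 and -6.89 in KO and at -5.98 (-6.27 in the table) and -6.95 in WT, not above background on any of these arrays. The fetal liver arrays were thus both above all marrow arrays, and the KO array was 3.41-fold below the WT array. With 1 array per genotype in fetal liver, no difference there has a replicate check.

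Afp was above background on every array of both tissues. Its level was 0.12 on the fetal liver KO array and 2.89 on the fetal liver WT array, a difference of -2.76, or 6.80-fold lower in KO. In bone marrow it was at -0.80 and -1.25 in KO and at 1.26 in WT replicate 2. In WT replicate 1 the scanner file put it at -2.71 and the table at 1.73. Within an array 7 to 10 spots carry this probe, and their SD was 0.03 to 0.17, far below the difference between the sources. With the table, every KO array was below every WT array of its tissue, and WT replicate 1 was the lowest array of all when the scanner file was used. In adult marrow Afp was detected on arrays where Alb was not.

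The genes for carriers of thyroid hormone and of mineral were also lower on the fetal liver KO array. Ttr encodes transthyretin, which carries thyroxine and retinol-binding protein. It was at -4.01 on the fetal liver KO array, not above background, and at -2.23 on the WT array, at least 2.10-fold lower in KO. A bound of this kind sets the brighter array's signal against the lowest signal detected on the dimmer array, or the probe's own if higher, with the scanner's own background correction. Ahsg encodes fetuin-A, which keeps calcium phosphate in solution. It was at -3.14 on the fetal liver KO array, not above background, and at -1.49 on the WT array, at least 3.13-fold lower in KO. In marrow both genes lay at -5.30 or lower on all arrays and in the table.

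The 3 fibrinogen chains, which are assembled into 1 clotting protein, did not all differ in the same direction. Fgb was at -3.92 on the fetal liver KO array and -1.97 on the WT array, at least 2.51-fold lower in KO. Fgg was at -5.29 on the fetal liver KO array and -3.17 on the WT array, at least 1.09-fold lower in KO. Fga was at -2.35 on the fetal liver KO array and -3.43 on the WT array, at least 1.84-fold higher in KO. Fga alone of the chains was also detected in marrow, at -4.21 in KO replicate 2 and -4.67 in WT replicate 2, and it was not above background at -5.09 in KO replicate 1 and -4.96 (-4.93 in the table) in WT replicate 1. A second Fga probe was not above background on any array, so the higher value in fetal liver KO rests on 1 probe. Fgb and Fgg lay at -5.80 or lower in all marrow values.

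The apolipoprotein genes of high-density lipoprotein differed from each other. Apoa1, which encodes its main protein, was not above background on any array, at -5.34 on the fetal liver KO array and -4.10 on the fetal liver WT array. None of its 10 spots on either fetal liver array was above background, with signals of 4.66 to 5.95 in KO and 7.51 to 24.2 in WT. Apoa2 was at 2.30 on the fetal liver KO array and 2.44 on the WT array. In bone marrow it was at 1.69 and 2.27 in KO and at 2.26 (1.80 in the table) and 2.10 in WT. Both fetal liver values lay just above all marrow values, and the genotypes overlapped in marrow. Its second, dimmer probe was also above background everywhere and disagreed. That probe was 1.41 lower (log2) on the fetal liver KO array than on the WT array, at -1.44 and -0.02, and it was at -1.99 and -1.86 in bone marrow KO and -3.70 (-1.43 in the table) and -1.69 in bone marrow WT.

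Trf, the gene for the iron carrier transferrin, was bright on every array. It was at 4.62 on the fetal liver KO array and 4.93 on the fetal liver WT array, and in bone marrow at 5.01 and 4.45 in KO and 4.76 (6.15 in the table) and 5.15 in WT. The tissues overlapped. A second Trf probe had the same sign of difference in each pair, at -0.28 in fetal liver, 0.23 in bone marrow pair 1 (-1.30 with the table) and -0.70 in pair 2.

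The fetal liver comparison asks how loss of Trim28 changes the cells of the fetal organ. The 10 genes had a median KO minus WT difference of -1.71, with 9 lower and 1 higher, against a median of -0.06 over all 20283 genes, of which 65.5% were lower in KO. Measured on at least 1 of the 2 arrays were 9 of the 10 genes. Of these, Afp, Alb, Ttr, Ahsg, Fgb and Fgg were at least 2-fold lower in KO by their measured values, as were 4.41% of all 12699 genes so measured, and Fga was 2-fold or more higher by its measured value, as were 5.32%. Ttr, Ahsg, Fgb and Fgg were measured only through the WT array, where they are high, and Fga only through the KO array, where it is high, so these 5 had to differ. Afp, Alb, Apoa2 and Trf were measured on both arrays, and 2 of these 4 were at least 2-fold lower (Afp and Alb) and 0 higher, against 2.1% lower and 2.78% higher of the 11710 genes above background on both. With normexp background correction, which compresses dim signals, the median was -0.40, Alb was at -0.91, Ttr at -0.48 and Fgg at -0.30, while Afp was at -2.50. In whole samples of sorted cells, fewer cells of a type and less RNA per cell cannot be told apart.

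**Figure D2:**
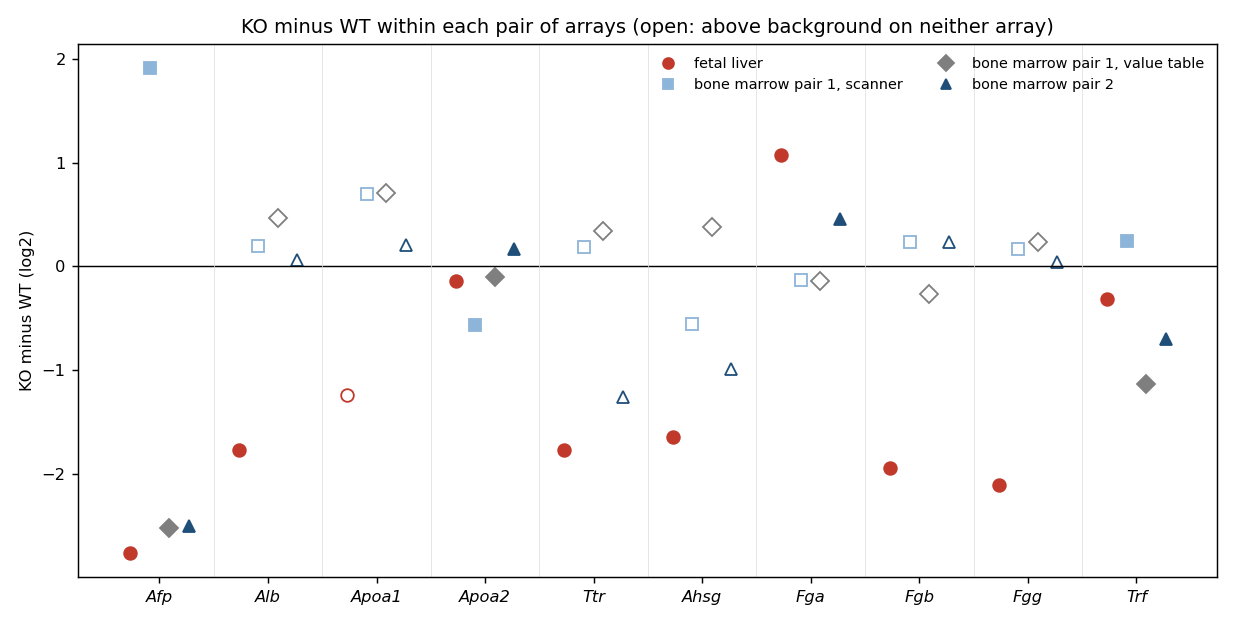
KO minus WT difference in log2 signal (vertical axis) for each gene in fetal liver, in bone marrow pair 1 from the scanner file and from the value table, and in bone marrow pair 2; open symbols are genes above background on neither array of the pair. Afp lies at -2.76, -2.53 (table) and -2.51 but at 1.91 with the scanner file of pair 1, and the filled marrow differences of the other genes lie between -1.14 and 0.46.

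Genes of several other secreted liver proteins were also lower on the fetal liver KO array. Of 35 such genes on the array, 11 were above background on the KO array and 14 on the WT array. Of the 11 above background on both arrays, 5 were at least 2-fold lower in KO and 0 higher, with a median of -0.59, against 2.1% lower of all genes so measured. The other 3, Serpinf2, F2 and Kng1, were measured only through the WT array, where they are high, and had to differ. Serpina6, the corticosteroid carrier, was at -3.14 in KO and -0.73 in WT. Rbp4, the retinol carrier that rides on transthyretin, was at -1.06 in KO and 0.17 in WT. Ambp, the precursor of a plasma protease inhibitor, was at -1.65 in KO and -0.19 in WT. Serpina1a and Serpina1c, copies of the antitrypsin gene whose probes may not tell them apart, were at -0.76 and -1.02 in KO and at 0.53 and 0.35 in WT. F2, the gene for prothrombin, was at least 1.44-fold lower in KO and Kng1, for kininogen, at least 2.23-fold. Some of the list were bright on both arrays. Hp, the gene for haptoglobin, which neutrophils also make, was at 7.46 in KO and 7.38 in WT. C3 of complement was at 4.29 in KO and 4.88 in WT.

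Genes of the hepatocyte interior gave a thinner signal. Of 20 enzyme and receptor genes, 7 were above background on the fetal liver KO array and 8 on the WT array, and their summed signal was 12.2 times the 75th percentile in KO and 20.5 in WT. Most of both sums was Ass1, a urea cycle gene that was also bright in marrow, at 3.09 in KO and 4.05 in WT of fetal liver and at 3.46 to 5.50 in all marrow values. Without Ass1 the sums were 3.73 in KO and 3.92 in WT. The brightest gene left in them was Aldh1l1, at 1.07 in KO and 0.95 in WT. In marrow Aldh1l1 was at 3.73 and 3.43 in KO and at 0.19 (3.27 in the table) and 3.02 in WT. Otc of the urea cycle was at least 1.63-fold lower in KO, and the asialoglycoprotein receptor genes Asgr1 and Asgr2 differed by -1.06 and -1.04 (KO minus WT). The classic enzyme genes Cps1, Tdo2, Hpd, Fabp1, Bhmt and Pck1 were among those not above background on any array. Hal, which breaks down histidine, was at -1.58 in KO and -2.62 in WT. Of 15 hepatoblast and liver transcription factor genes, 7 were above background on the KO array and 5 on the WT array. Of the 7, 0 were at least 2-fold lower in KO, and Epcam and Cdh1, measured only through the KO array, were at least 17.2-fold and 2.29-fold higher. The 5 measured on both arrays differed by -0.36 to 0.94. Of these, Gpc3 was at 2.24 in KO and 1.30 in WT, and Krt8 at -1.39 in KO and -1.75 in WT. Dlk1, a hepatoblast surface gene also made by other fetal cells, was at 4.36 in KO and 4.72 in WT. Foxa1, Prox1 and Onecut1 were not above background on any array, whereas Hnf4a was above background on all 6.

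Markers of other cell types differed on these arrays too, in both directions, and their part in the liver gene differences was not tested. Of 13 erythroid genes, 11 are on the array and all 11 were above background on both fetal liver arrays. Their summed signal was 1665 times the 75th percentile in KO and 923 in WT. Of the 11, 6 were at least 2-fold higher in KO, against 2.78% of all 11710 genes above background on both. Of 12 macrophage genes, 5 were above background in KO and 6 in WT, with a sum of 71.0 in KO and 82.7 in WT (5.34 in KO and 5.23 in WT without Csf1r). Vsig4, a marker of resident liver macrophages, was at -5.48 in KO, not above background, and at -0.62 in WT, at least 6.41-fold lower in KO. Of 9 genes of liver sinusoidal endothelium, 6 were above background in KO and 5 in WT, with a sum of 55.4 in KO and 43.0 in WT (16.2 in KO and 7.51 in WT without Kdr). Stab1 was at 2.31 in KO and 0.09 in WT, and Oit3 at least 2.49-fold higher in KO. Clec4g, Kdr, Pecam1 and Fcgr2b differed by 0.37, 0.14, 0.02 and 0.86 (KO minus WT). Stab2, Lyve1 and Cdh5 were not above background on either fetal liver array. Of 10 stellate and mesothelial genes, 3 were above background in KO and 2 in WT, with a sum of 4.53 in KO and 2.58 in WT. Col1a1 was at -0.85 in KO and -3.10 in WT, and Lrat, Reln, Wt1 and Upk3b were not above background on any array. Of the 11 KSL markers, 9 were above background in KO and 10 in WT, with a sum of 328 in KO and 342 in WT.

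**Figure D3:**
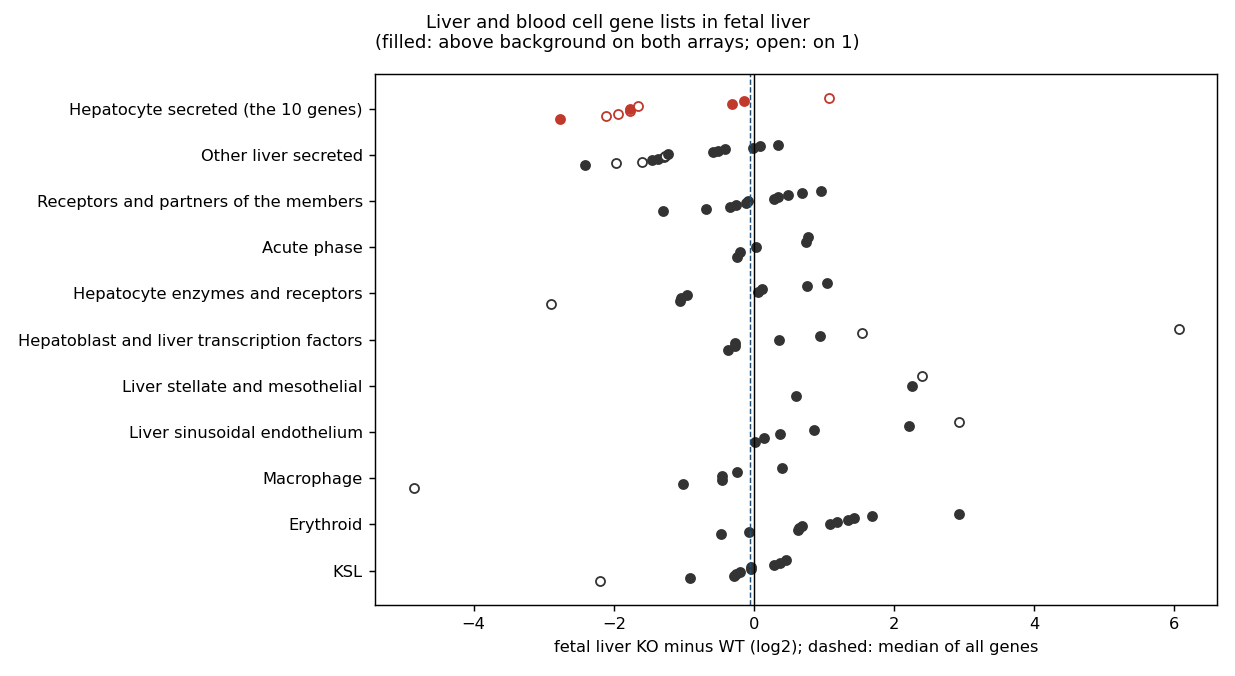
Fetal liver KO minus WT difference in log2 signal (horizontal axis) for each gene above background on at least 1 fetal liver array, by gene list; filled points were above background on both arrays, open points on 1, and the dashed line is the median of all genes at -0.06. The 9 measured plasma protein genes and the other liver secreted genes lie mostly left of 0, and the erythroid genes mostly right of it.

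The bone marrow comparison asks the same of adult cells, with 2 arrays of each genotype. From the scanner files, limma with Benjamini-Hochberg adjustment called 0 of 13010 genes (a background of 0%), with 548 at an unadjusted p under 0.05. Of the 10 genes, 3 could be tested, and 0 passed. Afp averaged -1.02 ± 0.32 in KO and -0.73 ± 2.81 in WT (SD, n = 2 each), a difference of -0.30 ± 1.32 (SE) with a limma adjusted p of 1.00. The WT spread comes from the scanner file of replicate 1. Without that array Afp was at -2.28 with a limma adjusted p of 0.0709 and 159 genes passed. Without WT replicate 2 the sign turned to 1.69, with a limma adjusted p of 0.0284 and 2391 genes past the threshold. In both of these fits the spread comes from the KO pair alone, and the single WT array is assumed to vary like it.

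With the value table Afp fell in marrow KO cells. It averaged -1.02 ± 0.32 in KO and 1.49 ± 0.34 in WT (SD, n = 2 each), and the difference of -2.52 ± 0.31 (SE) had a limma adjusted p of 0.0430. It was the 1 gene of the 3 tested that passed, against 0.876% of 12783 genes in either direction and 0.399% lower. Each slide held 1 KO and 1 WT array, so the replicate number marks a shared slide. With the slide as replicate block, 981 genes passed (7.67%, 3.72% lower) in place of 112. In that blocked fit Afp had an SE of 0.16 and an adjusted p of 0.0033, and Trf, at -0.92 ± 0.19, one of 0.0554. From the scanner files the block called 0 genes (699 at an unadjusted p under 0.05). Within pairs from the table, Afp differed by -2.53 and -2.51. Left without WT replicate 1, which leaves the same 3 arrays in both sources, the table gave Afp an adjusted p of 0.132 at -2.28.

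Trf and Apoa2 did not pass in marrow. Trf averaged 4.73 ± 0.39 in KO and 4.96 ± 0.28 in WT from the scanner files, and 4.73 ± 0.39 in KO and 5.65 ± 0.70 in WT from the table (SD, n = 2 each), a difference of -0.23 ± 0.42 and of -0.92 ± 0.42 (SE). Apoa2 averaged 1.98 ± 0.41 in KO and 2.18 ± 0.11 in WT from the scanner files, and 1.98 ± 0.41 in KO and 1.95 ± 0.21 in WT from the table (SD, n = 2 each), a difference of -0.20 ± 0.40 and of 0.03 ± 0.31 (SE). The direction of Apoa2 thus depends on the source. The medians of the 10 genes were 0.19 in pair 1 (0.07 with the table) and 0.05 in pair 2, against 0.18 (0.14 with the table) and 0.02 over all genes.

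Afp was 4-fold or more lower in KO in all 3 pairs when the table stood in for WT replicate 1. Of the 11241 genes above background on all 6 arrays, 8 (0.0712%) met this rule, which was set after the values were seen. The other 7 were Trim28 itself, at -4.30 in fetal liver and at -3.90 and -4.79 in marrow, and Apoe, Ear2, Elane, Hk3, Mdga1 and Satb1.

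In marrow the other secreted liver genes had 0 of 10 past the threshold in the scanner files and 0 of 8 in the value table. With the replicate block there, 3 of 8 fell, against 3.72% of all 12783 genes. C3 was at -3.69 ± 0.19, Ambp at -3.57 ± 0.24 and Hp at -4.15 ± 0.42 (SE, limma adjusted p = 0.0026, 0.0036 and 0.0096). Ambp was above background on neither marrow KO array, at -5.30 and -6.94. It entered the marrow fits only through the WT arrays, where it is high, so it had to differ. From the scanner files without the block, C3 was at -3.99 ± 0.89, Ambp at -2.84 ± 0.66 and Hp at -4.03 ± 1.12, and none of the 3 passed. From the table without the block, the acute phase gene Saa3 fell by 3.11 ± 0.41 and the macrophage receptor gene Csf1r by 3.00 ± 0.40 (both with a limma adjusted p of 0.0490). Epcam, an epithelial and hepatoblast adhesion gene, rose by 5.79 ± 0.60 (adjusted p = 0.0239) and Pdgfrb by 2.32 ± 0.28 (adjusted p = 0.0389) in the same limma fit, where 0.477% of all genes rose. None of these passed from the scanner files, where Epcam was at 2.87 ± 1.34 and Csf1r at -4.29 ± 1.18 (both with a limma adjusted p of 1.00), Pdgfrb at 2.01 ± 0.38 (adjusted p = 0.949), and Saa3 was not tested. In the value table Saa3 was above background on neither marrow KO array and entered only through the WT arrays, where it is high. Epcam entered there only through the KO arrays, where it is high, with WT replicate 1 not above background at -5.02. Epcam was at least 17.2-fold higher in KO in fetal liver as well. The summed macrophage signal in marrow was 6.41 and 4.99 in KO and 253 (43.3 with the table) and 23.8 in WT, and the summed erythroid signal 580 and 75.1 in KO and 2199 (22.8 with the table) and 17.0 in WT. The part of these cells in the Afp difference was not tested.

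The tissue comparison sets fetal liver cells against adult marrow cells in 1 limma fit of the 6 arrays with terms for tissue and for genotype. The fetal liver arrays shared a slide and scan that held no marrow array, and their cells carried another Cre. Tissue therefore cannot be told apart from slide, scan, Cre driver or age. From the scanner files Alb, Ahsg and Ttr rose, 3 of the 9 genes tested, against 2.1% of 13659 genes in either direction and 1.23% higher. Alb averaged -1.31 ± 1.25 in fetal liver (n = 2) and -6.40 ± 0.61 in marrow (SD, n = 4), a difference of 5.09 ± 0.62 (SE) with a limma adjusted p of 0.0317. Ahsg averaged -2.32 ± 1.17 in fetal liver and -6.01 ± 0.68 in marrow, a difference of 3.69 ± 0.45 (adjusted p = 0.0317). Ttr averaged -3.12 ± 1.26 in fetal liver and -6.37 ± 0.55 in marrow, a difference of 3.25 ± 0.46 (adjusted p = 0.0429). The marrow arrays were not above background for these genes, so the folds are bounds, at least 9.23-fold higher in fetal liver for Alb, 4.58-fold for Ahsg and 2.63-fold for Ttr. Alb entered the test only through the fetal liver arrays, where it is high. Ahsg, Ttr, Fgb and Fgg entered only through the fetal liver WT array and Fga through the KO array. Of the fetal liver arrays, 1 of 2 was above background for Ahsg and Ttr.

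Fgb differed by 3.33 ± 0.53 (SE, limma adjusted p = 0.0550) and was at least 2.96-fold higher in fetal liver. Fga differed by 1.84 ± 0.39 (adjusted p = 0.0857) and Fgg by 2.54 ± 0.63 (adjusted p = 0.107, at least 1.22-fold higher in fetal liver). Afp, at 2.38 ± 1.22, did not pass either (adjusted p = 0.265). Apoa2 at 0.29 ± 0.28 and Trf at -0.07 ± 0.29 were the genes with the smallest tissue difference. The median over all genes tested was itself 0.30 higher in fetal liver on this scale, and 0.06 with quantile normalization, which also changed the split of calls to 167 higher and 187 lower in fetal liver, in place of 168 and 119.

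With the table, 7 of the 9 rose in fetal liver, namely Afp, Alb, Ttr, Ahsg, Fga, Fgb and Fgg, against 22.9% of 13496 genes in either direction and 13.9% higher. All of these but Afp again entered the test only through fetal liver arrays, where they are high. Afp averaged 1.50 ± 1.96 in fetal liver (n = 2) and 0.24 ± 1.48 in marrow (SD, n = 4), and differed by 1.27 ± 0.24 (SE) with a limma adjusted p of 0.0225 once genotype was in the model. The range of Afp in fetal liver overlapped that in marrow, since the fetal liver KO array at 0.12 lay below both marrow WT values of 1.73 and 1.26. With the slide as a random block, Alb and Ahsg passed in the table, where 459 of 13496 genes rose and 374 fell. In the scanner files Alb, Ahsg, Ttr and Fgb passed, where 196 of 13659 genes rose and 140 fell. The correlation within slides was estimated at 0.45 in the table and -0.035 in the scanner files. No slide held both tissues, so the block cannot separate slide from tissue.

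**Figure D4:**
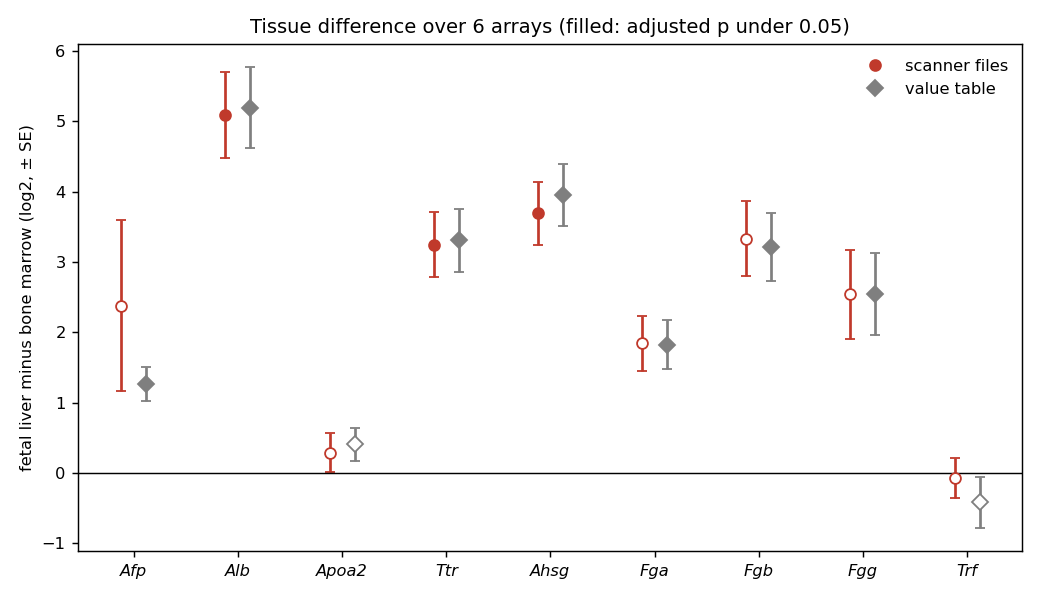
Fetal liver minus bone marrow difference in log2 signal with its SE (vertical axis) for the 9 genes tested, from the scanner files and from the value table; filled symbols have a limma adjusted p under 0.05. Alb, Ttr and Ahsg are filled in both sources, and Apoa2 and Trf in neither.

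Single arrays ended the calls from the scanner files, and not for the 10 genes alone. Over all genes, 0 of 14480 passed without marrow KO replicate 1, 6 of 13954 without marrow WT replicate 2 and 1 of 13765 without marrow KO replicate 2. Left without the fetal liver KO array, the fetal liver WT array, marrow KO replicate 1, marrow WT replicate 2 or marrow KO replicate 2, 0 of the 10 genes passed. Alb then had adjusted p-values of 0.105, 0.141, 0.130, 0.0672 and 0.149, with differences of 4.14 to 6.04. Left without marrow WT replicate 1, 1552 of 14442 genes passed, among them Alb, Ahsg, Ttr and Fgb, with Alb at 5.17 (limma adjusted p = 0.0235). With normexp, 0 passed, and Alb was at 2.13 (adjusted p = 0.0803). Without a filter on dim probes Ttr lost its call, at 3.25 with an adjusted p of 0.0529, and Alb and Ahsg passed.

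Among the other secreted liver genes, Rbp4 passed from the scanner files, at 4.20 ± 0.59 (SE, limma adjusted p = 0.0424). It was 1 of 17 tested, where 1.23% of all genes rose. Of the 15 tested in the value table, 6 rose in fetal liver, as did 13.9% of all genes. They were Serpina1a, Serpina1c, Serpina1e, Serpina6, Ambp and Rbp4. C4b was among those that fell, as did 8.93% of all genes. Dlk1 rose by 7.16 ± 0.82 (adjusted p = 0.0287, scanner files), and the embryonic globin genes Hbb-y and Hba-x by 10.34 ± 0.24 (adjusted p = 0.000993) and 6.71 ± 0.71 (adjusted p = 0.0278). Rbp4, Serpina1a, Serpina1c, Serpina6, Hbb-y and Hba-x entered these tests only through the fetal liver arrays, where they are high.

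Receptors of these plasma proteins sit on blood cells as well as on other cells, and 15 receptor and partner genes were listed. All 11 receptor and partner genes measured in fetal liver were above background on both arrays. Of these, 1 was at least 2-fold lower in KO, against 2.1% of all 11710 genes above background on both. That gene was Fcgrt, whose receptor recycles albumin, at -2.93 in KO and -1.63 in WT. Tfrc, the transferrin receptor gene, was at 0.20 in KO and 0.88 in WT. Of the 11, 4 receptor genes fell in fetal liver relative to marrow when the value table was used, against 8.93% of all 13496 genes. Tfr2, the second transferrin receptor, differed by -2.29 ± 0.24 (SE, limma adjusted p = 0.0056). Itga2b and Itgb3, which together form the fibrinogen receptor of platelets, differed by -2.59 ± 0.19 (adjusted p = 0.0026) and -1.12 ± 0.30 (adjusted p = 0.0476), and Fcgrt by -1.68 ± 0.42 (adjusted p = 0.0415). Itgax rose by 2.63 ± 0.69 (adjusted p = 0.0475), where 13.9% of all genes rose. From the scanner files 0 of the 11 passed, with Itga2b at -6.07 in marrow WT replicate 1 against 2.68 in the table.

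Whether the KO effect differs between fetal liver and marrow was tested as an interaction. The fit takes the spread of the single fetal liver arrays to be that of the marrow arrays. From the scanner files 0 of 13659 genes passed (0%, with 351 at an unadjusted p under 0.05) and with the value table none of 13496 did (0%, with 948), so 0 of the 9 genes tested passed. Fgb had the lowest p from the scanner files, with an interaction of -2.18 ± 0.65 (SE, unadjusted p = 0.0214 and adjusted p = 1.00 in limma), and Alb was at -1.90 ± 1.04. Fgb was above background on 1 of the 6 arrays, the fetal liver WT array, through which it entered the test, and Alb on the 2 fetal liver arrays, so these are differences of partly unmeasured values. For Afp it was -2.47 ± 2.32 from the scanner files and -0.25 ± 0.55 from the table.

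Profiles most like the mean of the 10 genes over the 6 arrays were sought among 3314 genes above background on at least 1 array with an SD of at least 1. From the scanner files these were Cpb1 (Pearson r = 0.993), Slc13a3 (0.990), Pax8 (0.988), Ssty1 (0.988) and Slc30a8 (0.987). From the table, over 2432 genes, they were Speer6-ps1, Cpb1, Kynu, Slc30a8 and Fbln1, with r of 0.987 to 0.990. The r is over 6 points that share the array's depth, and 4 of the 5 scanner file genes were above background on 1 array only.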

How the data were processed

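The authors deposited 1 Agilent scanner file per array, with the intensity of each spot after background correction (gProcessedSignal) per the file headers, and a value table that holds a linear ratio per probe. The submitters' processing notes name Agilent Feature Extraction, version 10.7.1.1. On 5 of the 6 arrays that ratio is the scanner signal divided by a constant, so its direction is that of the signal and no centring was seen. Its column medians were 0.0709 for fetal liver KO, 0.0705 for fetal liver WT, 0.056 and 0.064 for bone marrow KO and 0.057 and 0.063 for bone marrow WT. What the column of bone marrow WT replicate 1 was made from is not given in the sources used here. Probes were named through RefSeq accessions, which named 26762 of 55681 probes for 20284 genes, of which 20283 were read. Promoter sequences are from RefSeq.

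Values are log2(gProcessedSignal) minus the array's 75th percentile, without control and outlier spots, with spots of a probe averaged. For the table's column of bone marrow WT replicate 1, a level of -3.7 replaced the background flag. It matches 99.1% of the flags on the KO array of the same slide. Genes above background on all arrays of at least 1 group were tested with limma 3.58.1 in R 4.3.3 (with data.table, version 1.17.8) and passed at an adjusted p under 0.05 over all genes tested. Only the marrow fit without a block was checked on simulated data, which held no deviant array. The tissue, interaction and block fits were not checked in this way. Alternatives were the table, normexp (offset 50, run on gMedianSignal because no mean signal is in the files), quantile normalization, other filters, the mean over probes, each array left out, and the slide as a block. The slide comes from the file headers, and same-numbered marrow arrays deviated together (r = 0.19 over genes from the scanner files, 0.53 from the table). The 10 genes and all lists were chosen with earlier results of these data known. Genes outside the 10 were named if past a threshold, or as the up to 4 per list with the largest difference in fetal liver. Those named for other reasons (Hp, C3, Tfrc, Hnf4a, Ass1, Aldh1l1, Krt8, Kdr, Pecam1, Clec4g, genes not above background) were chosen after their values were seen. So were the counts over genes above background on both fetal liver arrays and the sums without a list's brightest gene. The number of arrays limits the precision.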

Additional observations from a re-analysis of the deposited data

How the results depend on the processing

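For marrow KO against WT, 0 of the 3 genes tested passed from the scanner files in the base setting and under normexp, quantile normalization, both other filters, the mean over probes and the replicate block. The table made it 1 (Afp), with 112 genes in all in place of 0, and the replicate block made it 981 there. Leaving out 1 array gave 0 to 1 of the genes and 0 to 2391 genes in all from the scanner files. From the table, leaving out 1 array gave 0 to 1 of the genes and 88 to 656 genes in all. Leaving out 1 array, Afp ranged over -2.28 to 1.69, Trf over -0.51 to 0.050, and Apoa2 over -0.49 to 0.087 (-0.26 to 0.32 in the table). Apoa2 was also turned by the table, to 0.031 with and without the replicate block, and by the mean over probes, to 0.29. For fetal liver against marrow, the 3 genes past the threshold became 7 in the table (3087 genes in all), 2 without a filter (Alb and Ahsg, with Ttr at an adjusted p of 0.0529), 0 with normexp (185 in all) and 0 when probes had to be above background on every array, which removes the liver genes by construction. Leaving out 1 array gave 0 to 4 of the genes and 0 to 1552 in all from the scanner files, and 2 to 7 of the genes and 813 to 1720 in all from the table. With the slide as a random block the table gave 2 of the genes and 833 in all. Trf ranged over -0.19 to 0.052 when 1 array was left out. In fetal liver the median of the 10 genes was -0.40 with normexp in place of -1.71, and the signs of its 9 measured genes held in the table, normexp, quantile and mean over probes. The cause of these changes was not tested. With 1 fetal liver array per genotype and 2 marrow arrays, and with 6 of the 10 genes below background on all marrow arrays, small differences could not be seen.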
